A study of Oncorhynchus mykiss with 9 samples.

Results

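The liver of rainbow trout (Oncorhynchus mykiss) exposed to acute hypoxia, a shortage of oxygen, was compared with the liver of control fish across all genes quantified in both groups. The comparison used 6 RNA sequencing libraries of wild-type liver tissue, 3 labelled control and 3 labelled acute hypoxia, which are listed together in 1 deposited table. Of the 42038 genes listed in that quantification, 13039 had a mean of at least 1 FPKM (fragments scaled to transcript length and library total) over the 6 libraries and were tested; the whole series lists 42270 genes. The study asked how trout liver responds to lack of oxygen, with glucose transport by glut1a as its named interest. Its design text places acute hypoxia at 12 h and leaves unclear whether that time also holds for moderate hypoxia. The oxygen levels, ages and sexes are not given in the sources used here, 3 libraries of moderate hypoxia served only a comparison given near the end, and reoxygenated fish were not analysed here. Whether libraries of 1 group are separate fish is not stated, and the p-values measure only the spread between libraries, which may be technical. Single libraries are called control 1 to 3 and acute 1 to 3 after their replicate numbers, and a repeat is the same fit with 1 library left out.

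Cells sense oxygen through dioxygenases that need it as a substrate. The EGLN prolyl hydroxylases mark the alpha subunits of the hypoxia-inducible factor (HIF) for degradation, and the asparaginyl hydroxylase FIH blunts their activity. When oxygen runs short HIF accumulates and switches on genes for glycolysis, red cell formation and vessel growth, several EGLN genes among them. In liver, an organ that makes glucose, lipoproteins, cholesterol and blood proteins for the whole body, lack of oxygen also bears on processes that use much ATP or oxygen, cholesterol synthesis among them.

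The libraries were alike in the number of genes seen and in the share of their most abundant genes. Summed levels of some cell type markers differed between libraries and are given further on. Between 29502 and 30517 genes had a value above 0, and 12622 to 13366 reached 1 FPKM. In a library the 10 genes of highest FPKM made up 27.2% to 29.5% of all FPKM. Read totals are unknown, so no counting intervals can be given; the steps between low values put the sequencing depth at 0.946 to 1.29 times that of control 1. The first principal component held 48.6% of the variance and separated the groups. Genes that mark hepatocytes, such as those of albumin, fibrinogen and transferrin, were abundant in every library, with a summed level of 105684 to 106315 FPKM in control and 107571 to 110780 FPKM in acute hypoxia.

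At an adjusted p under 0.05 (limma on log2(FPKM + 0.5), Benjamini-Hochberg over all genes tested), 976 genes differed between acute hypoxia and control, 7.49% of those tested. Of these 383 were higher (2.94%) and 593 lower (4.55%), with median log2 fold changes of 0.64 and -0.64. The shares of 7.49%, 2.94% and 4.55% are the background for every list count below. All log2 fold changes are on the log2(FPKM + 0.5) scale, acute hypoxia minus control, and understate the change of genes with low FPKM. A gene with a mean below 1 FPKM in 1 group passed the filter only through the other group, so it could be called in 1 direction only. A change of at least 1 on the log2 scale was found in 88 higher (0.675%) and 92 lower genes (0.706%). The groups did not overlap for any of the 976 genes; among all genes tested 28.7% had groups that did not overlap. The split depended on scaling, since 479 were higher (3.68%) and 481 lower (3.7%) after median-of-ratios scaling and 503 and 467 after quantile normalization, and the median log2 fold change of all genes was -0.05 before it. Leaving out 1 library moved the number called, to 281 without control 1, 425 without acute 2, 514 without control 2 and 584 without control 3. It was 659 without acute 1 and 805 without acute 3. In every one of these 6 repeats 261 genes were called. A gene described below as higher or lower was among these 261 unless the libraries whose removal ended its call are named. In bulk tissue, fewer cells of a type and less RNA per cell cannot be told apart.

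**Figure D1:**
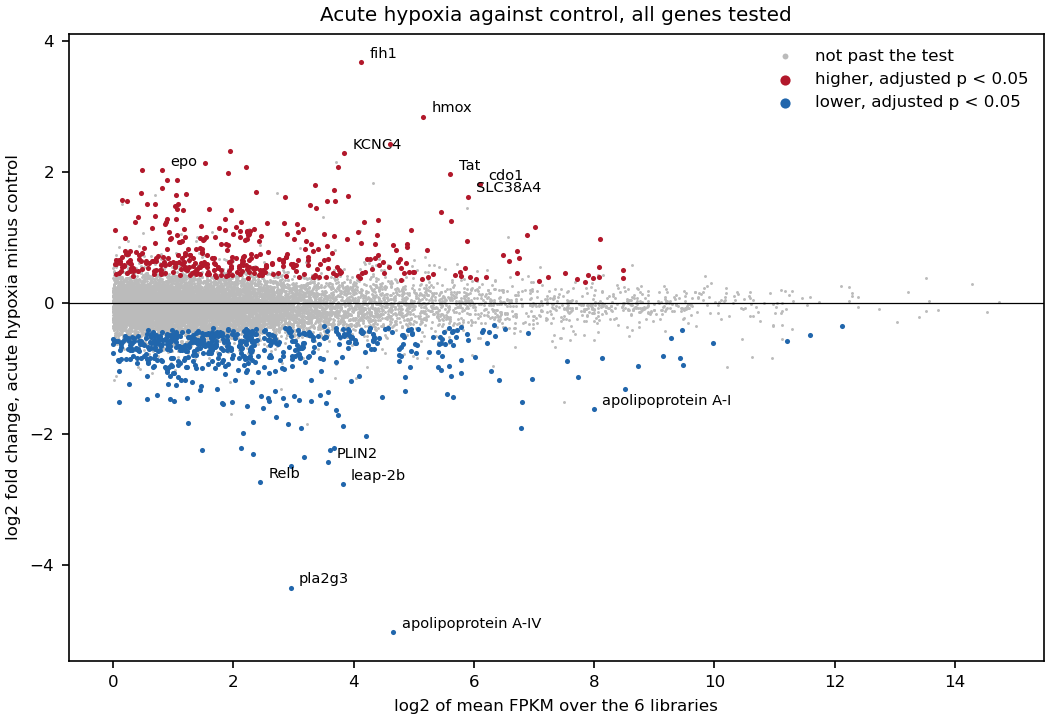
Log2 fold change of each of the 13039 genes tested (acute hypoxia minus control, vertical axis) against the log2 of its mean FPKM over the 6 libraries (horizontal axis). Coloured points passed the test, 383 higher and 593 lower; fih1 stands highest at 3.68 and an apolipoprotein A-IV gene lowest at -5.03.

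The largest rise was that of a gene of the oxygen-sensing machinery itself. The gene fih1 (ncbi_101268916), the gene of FIH, stood at 2.11, 2.05 and 2.15 FPKM in control replicates 1 to 3 and 31.97, 36.02 and 30.7 FPKM in acute hypoxia replicates 1 to 3. Each acute hypoxia library was thus far above each control library (log2 fold change 3.68 ± 0.10 SE, adjusted p = 1.51e-06), and no other gene tested and past the test rose as much. Egln3 (ncbi_110505778), the prolyl hydroxylase that is itself a HIF target in mammals, was at 0.284, 0.214 and 0.240 in control and 2.69, 2.27 and 2.71 FPKM in acute hypoxia (log2 fold change 2.03 ± 0.12 SE, adjusted p = 1.04e-04). Rises of other prolyl hydroxylase genes were 1.76 for the second copy Egln3 (ncbi_110497687), 1.45 for egln1 (ncbi_101268917) and 1.44 for EGLN2 (ncbi_110507058). Of 19 tested genes of the HIF pathway, 7 were higher and 2 lower, against the 2.94% and 4.55% of all genes. The list's median log2 fold change was 0.06. This list and those below were chosen with earlier results of these data known. Genes low in control, such as Egln3 (ncbi_110505778), passed the filter only through their acute hypoxia values, so they could only count as higher. Where a mean of at least 5 FPKM was required, 1 member was higher and 1 lower. In the main fit the lower count was 0 without control 1, control 2, acute 1 or acute 2 and 1 without control 3. The lower genes were EPAS1 (ncbi_110503001), which encodes the HIF-2 alpha subunit, at -0.45, not called without control 1, control 2, acute 1 or acute 2 (adjusted p up to 0.116), and egln2 (ncbi_110503496) at -0.49, not called once any library other than acute 3 was left out (adjusted p up to 0.172). The remaining higher genes were Egln1 (ncbi_110486061) at 0.65, not called without control 1 or acute 2 (adjusted p up to 0.0596), and P4HA1 (ncbi_110499022) at 0.62, not called without control 1, control 2 or acute 2 (adjusted p up to 0.0917). P4HA1 encodes a subunit of a collagen prolyl hydroxylase, not of a HIF hydroxylase, but was counted in this list. The alpha subunit gene hif1a (ncbi_100135944) was at 10.5, 10.5 and 10.4 in control and 10.2, 10.4 and 11.3 FPKM in acute hypoxia (adjusted p = 0.916), with overlapping groups.

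A further oxygen-dependent hydroxylase rose in 2 copies. The gene jmjd6 encodes a JmjC-domain lysyl hydroxylase. Its copy jmjd6 (ncbi_110486581) was at 2.33, 2.35 and 2.52 in control and 6.17, 6.57 and 6.40 FPKM in acute hypoxia (log2 fold change 1.25 ± 0.09 SE, adjusted p = 3.14e-04), and the copy jmjd6 (ncbi_110538541) rose by 0.85 (adjusted p = 0.00512). They belonged to the oxygen-dependent demethylases and relatives (KDM, JMJD, TET and ALKBH genes), of which 3 of 39 were higher and none lower, with a median of 0.08. The share called, 7.69%, was near the 7.49% of all genes tested (2.94% higher and 4.55% lower). The third was KDM4C (ncbi_110534602), annotated as lysine-specific demethylase 4A, at 0.64, which was not called without control 2, control 3, acute 1 or acute 2 (adjusted p up to 0.0984).

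Among the classical HIF targets the genes moved both ways. Of 48 tested, 10 were higher and 6 lower, with a median of 0.17. The higher count was 6 without control 1, acute 2 or acute 3, and the lower count was 2 without control 1 and 3 without acute 2. Where a mean of at least 5 FPKM was required, 4 were higher and 4 lower. Here too a gene below 1 FPKM in control, such as epo, passed the filter only through acute hypoxia. The gene epo (ncbi_110531655), of the hormone that drives red cell formation, was at 0.359, 0.403 and 0.380 in control and 2.58, 3.37 and 3.48 FPKM in acute hypoxia. The heme oxygenase gene hmox (ncbi_110485518), whose enzyme opens the heme ring, was at 7.34, 8.49 and 8.91 in control and 75.2, 64.8 and 49.8 FPKM in acute hypoxia. In both genes every acute hypoxia library stood several-fold above every control library (log2 fold change 2.04 ± 0.13 SE, adjusted p = 1.63e-04 for epo; log2 fold change 2.85 ± 0.15 SE, adjusted p = 7.84e-05 for hmox). The vessel growth factor vegfaa (ncbi_110529696) rose by 0.89 (adjusted p = 0.0048). Other listed targets fell. The gene angptl4 (ncbi_110508918), of an inhibitor of lipoprotein lipase, was at 33.4, 39.2 and 25.01 in control and 10.97, 12.4 and 11.4 FPKM in acute hypoxia (log2 fold change -1.43 ± 0.16 SE, adjusted p = 0.00185). Also lower was Higd1a (ncbi_110530494), a small protein of the inner mitochondrial membrane, at -0.76. Paralogs and relatives split within this list. Of the NDRG1 genes, NDRG1 (ncbi_110496659) was higher at 0.46 (not called once any library other than control 2 was left out, adjusted p up to 0.169) and ndrg1a (ncbi_110488041) lower at -0.79 (not called without control 1, adjusted p = 0.0532). Of the mitophagy receptors, BNIP3L (ncbi_110509873) was higher at 0.52 (not called without control 1, control 3 or acute 1, adjusted p up to 0.0959) and bnip3 (ncbi_100301704) lower at -0.44 (not called without control 1, control 2 or acute 2, adjusted p up to 0.108).

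**Figure D2:**
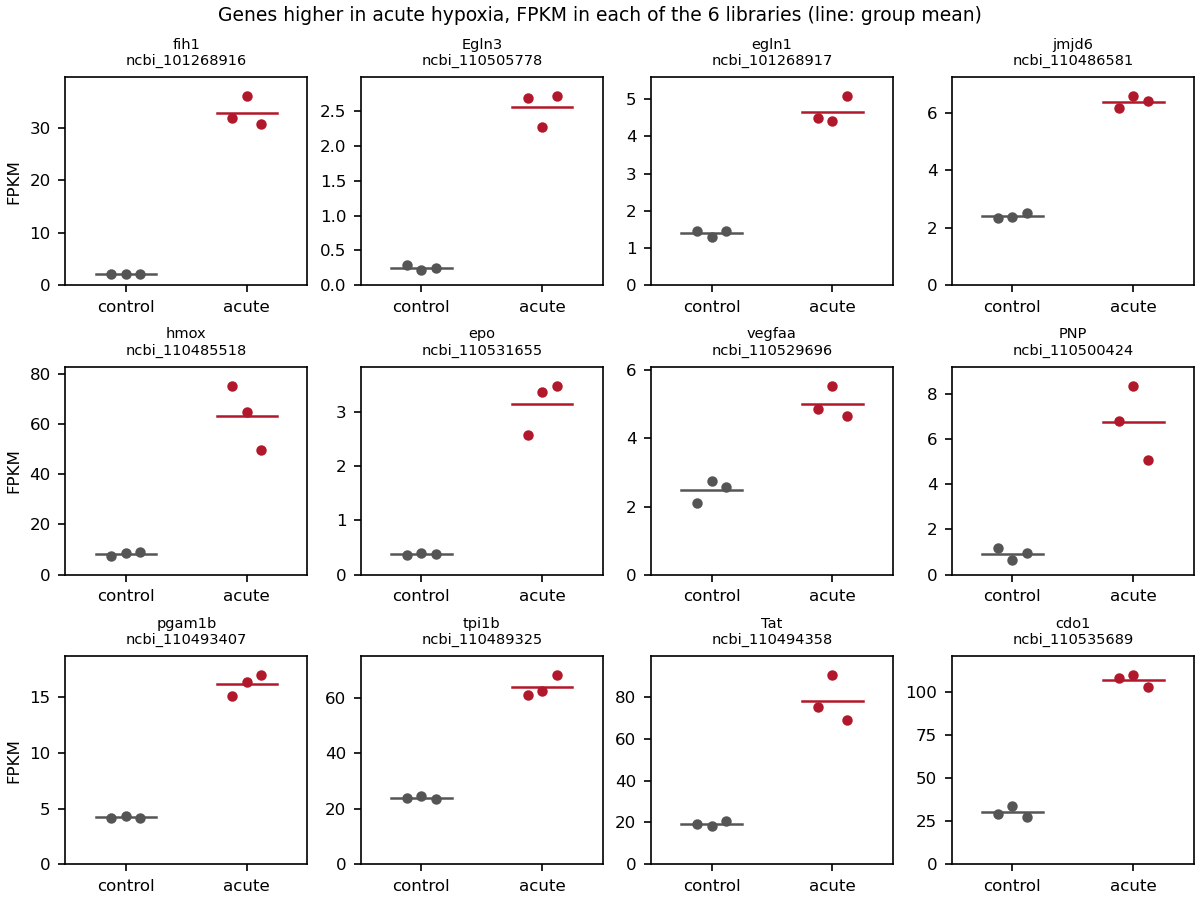
FPKM of 12 genes that rose, in each control and each acute hypoxia library (points; lines are group means, and each panel has its own vertical axis from 0). In every panel the 3 acute hypoxia libraries lie above the 3 control libraries, from 2.101 to 32.9 FPKM on average for fih1.

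Most of the glycolysis genes that were called rose. Of 30 tested, 9 were higher and 1 lower, 33.3% called against 7.49% of all genes, with a median log2 fold change of 0.41. The higher count was 4 without control 1, and the lower count was 0 without control 1, control 3, acute 2 or acute 3. Phosphoglycerate mutase led: pgam1b (ncbi_110493407) was at 4.18, 4.37 and 4.17 in control and 15.1, 16.4 and 16.98 FPKM in acute hypoxia (log2 fold change 1.81 ± 0.09 SE, adjusted p = 7.84e-05), and PGAM1 (ncbi_118940026) rose by 1.69. Both copies of tpi1b, triosephosphate isomerase, rose, ncbi_110489325 by 1.39 and ncbi_110517847 by 1.28. Smaller rises, each lost in some repeats, were pgk1 (ncbi_110537531) at 0.63 (not called without control 1, adjusted p = 0.0585), gapdh (ncbi_110496191) at 0.55 (not called without control 1 or acute 2, adjusted p up to 0.0909) and Aldoa (ncbi_110539093) at 0.68 (not called without control 1, control 3 or acute 1, adjusted p up to 0.0965).

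Gluconeogenesis genes moved both ways. Phosphoenolpyruvate carboxykinase, pck1 (ncbi_110493880), was at 0.657, 0.752 and 0.927 in control and 1.75, 2.21 and 3.15 FPKM in acute hypoxia and rose (log2 fold change 1.14 ± 0.18 SE, adjusted p = 0.00958), whereas the glucose-6-phosphatase gene G6PC (ncbi_110499065) was at 73.4, 63.1 and 78.5 in control and 35.4, 38.3 and 43.2 FPKM in acute hypoxia and fell (log2 fold change -0.87 ± 0.12 SE, adjusted p = 0.00437). They were the only called genes of 13 tested for gluconeogenesis, with 2 lower without acute 3. As pck1 was below 1 FPKM in every control library, it passed the filter only through acute hypoxia and could only count as higher. In glycogen metabolism 3 of 28 were higher and 2 lower; the higher count was 1 without control 1 or acute 2, and the lower count was 0 without control 1, control 2 or control 3 and 1 without acute 1, acute 2 or acute 3. The phosphatase subunit that binds glycogen, ppp1r3cb (ncbi_110491403) rose by 1.56 (adjusted p = 1.63e-04), while UDP-glucose pyrophosphorylase, Ugp2 (ncbi_110531757), stood at -1.20 and was not called without control 1, control 2 or control 3 (adjusted p up to 0.0818). The monocarboxylate transporter gene SLC16A7 (ncbi_110532449) was at 2.58, 2.998 and 2.78 in control and 7.01, 7.299 and 5.298 FPKM in acute hypoxia (log2 fold change 1.09 ± 0.13 SE, adjusted p = 0.00303), the only called member of 10 genes tested for glucose and lactate transport. The shares called were 15.4% for gluconeogenesis, 17.9% for glycogen metabolism and 10% for glucose and lactate transport, against 7.49% of all genes tested.

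Few genes of the tricarboxylic acid cycle, the respiratory complexes and the mitochondrial ribosome were called. The shares were 1.64%, 3.14% and 4.3%, against 7.49% of all genes tested. Of 61 genes of pyruvate dehydrogenase and the tricarboxylic acid cycle 1 was higher and none lower (median 0.04). Of 159 respiratory complex genes 1 was higher and 4 lower (median -0.10), and of 93 mitochondrial ribosome genes 4 were lower and none higher (median -0.22). For the respiratory complex genes the higher count was 0 with any library other than control 2 left out, and the lower count was 0 without control 2 or acute 2, 1 without control 1 and 2 without acute 3; for the mitochondrial ribosome the lower count was 0 without acute 2, 1 without control 1 and 2 without control 2. The higher gene of the cycle list was MDH1 (ncbi_110486012), which encodes not the mitochondrial but the cytosolic malate dehydrogenase, at 0.43, not called once any library other than acute 1 was left out (adjusted p up to 0.152).

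Most genes of cholesterol synthesis fell, enzymes and regulators alike. Of 36 tested genes 23 were lower and none higher, 63.9% called against 4.55% of all genes, and the median log2 fold change was -0.93 against -0.05. The lower count was 13 without control 1 and 15 without control 3, and 20 after median-of-ratios scaling. Early enzymes had deep falls. The gene hmgcs1 (ncbi_110523168), the cytosolic HMG-CoA synthase, was at 21.5, 18.5 and 21.2 in control and 3.84, 2.65 and 5.81 FPKM in acute hypoxia (log2 fold change -2.24 ± 0.22 SE, adjusted p = 0.00115). Isopentenyl diphosphate isomerase, idi1 (ncbi_100301790), was at 22.2, 20.5 and 20.8 in control and 4.32, 2.49 and 6.54 FPKM in acute hypoxia (log2 fold change -2.21 ± 0.26 SE, adjusted p = 0.00243). In both genes the highest acute hypoxia library, replicate 3, was below every control library. Lower too were MVK (ncbi_110525361), -1.07, FDPS (ncbi_110520852), -1.87, fdps (ncbi_110520853), -1.17, fdft1 (ncbi_110522339), -1.74, hsd17b7 (ncbi_110530031), -1.49 and cyp51 (ncbi_110488242), -1.35 on the log2 scale, enzymes of the steps between mevalonate and cholesterol. The regulators fell with them: both srebf2 genes, of the transcription factor that drives the pathway (ncbi_110486444, -1.05; ncbi_110538342, -0.82), both insig1 genes (ncbi_110535597, -1.50; ncbi_110489981, -0.89), which hold that factor in the endoplasmic reticulum, and the sterol carrier stard4 (ncbi_110523470), -1.07. HMG-CoA reductase, hmgcra (ncbi_100135848), the rate-limiting enzyme, was at 41.2, 34.3 and 47.1 in control and 18.5, 9.01 and 23.2 FPKM in acute hypoxia; its log2 fold change of -1.34 (adjusted p = 0.0336) was not called without control 1, control 2, control 3 or acute 1 (adjusted p up to 0.116).

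The deepest fall on the log2(FPKM + 0.5) scale was in an apolipoprotein gene. The apolipoprotein A-IV gene ncbi_110523359 was at 49.5, 61.5 and 37.3 FPKM in control replicates 1 to 3 and 1.68, 0.677 and 0.815 FPKM in acute hypoxia replicates 1 to 3. All 3 acute hypoxia libraries lay far below every control library (log2 fold change -5.03 ± 0.25 SE, adjusted p = 7.84e-05). A second apolipoprotein A-IV gene, ncbi_110537898, was at 518, 584 and 449 in control and 235, 156 and 239.6 FPKM in acute hypoxia and fell by 1.31 on the log2 scale. The apolipoprotein A-I gene ncbi_110510190, the main protein of high-density lipoprotein, was at 379, 435 and 344 in control and 124.5, 111 and 141 FPKM in acute hypoxia (log2 fold change -1.62 ± 0.12 SE, adjusted p = 3.29e-04), and zgc:162608 (ncbi_110507365), annotated as an apolipoprotein A1/A4/E family protein, was at 174, 181 and 165 in control and 58.4, 42.7 and 38.7 FPKM in acute hypoxia (log2 fold change -1.90 ± 0.15 SE, adjusted p = 3.69e-04). Of 48 genes of apolipoproteins and lipoprotein handling 2 were higher and 10 lower, with a median of -0.02; the lower count was 5 without control 1 and 6 without control 2 or acute 2. These apolipoproteins are members of 1 family, and reads shared between near-identical copies may be counted in either, so single values are uncertain. Secreted phospholipase A2 group III, pla2g3 (ncbi_110536804), was at 15.1, 18.7 and 11.97 in control and 0.246, 0.135 and 0.437 FPKM in acute hypoxia (log2 fold change -4.34 ± 0.19 SE, adjusted p = 4.78e-05). It was below 1 FPKM in every acute hypoxia library, so it passed the filter only through control and could only count as lower. In all, 1 of 14 phospholipase A2 genes was higher and 3 lower. The higher count was 0 without control 1, control 2, acute 1 or acute 2, and the lower count was 1 with any library other than acute 3 left out.

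Genes of fat storage and use moved in both directions. The droplet-coating protein gene PLIN2 (ncbi_110531797) was at 19.3, 29.3 and 13.3 in control and 3.62, 3.36 and 2.83 FPKM in acute hypoxia (log2 fold change -2.42 ± 0.24 SE, adjusted p = 0.00125), and G0s2 (ncbi_110494987), an inhibitor of the triglyceride lipase of droplets, was at 0.367, 0.921 and 0.272 in control and 2.74, 2.43 and 4.49 FPKM in acute hypoxia (log2 fold change 1.88 ± 0.27 SE, adjusted p = 0.00566). As G0s2 was below 1 FPKM in every control library, it passed the filter only through acute hypoxia and could only count as higher. Of 23 droplet genes 1 was higher and 2 lower, and 0 were higher and 2 lower where a mean of at least 5 FPKM was required. The lower count was 1 without control 1 or control 2 and 4 without acute 3. Among fatty acid oxidation genes 7 of 54 were lower and 1 higher (median -0.21), 14.8% called against 7.49% of all genes tested. The higher count was 0 without control 1, control 3 or acute 2, and the lower count was 2 without control 1 or acute 2, 3 without control 3 and 4 without control 2. The lower genes included CPT1A (ncbi_100329197), the gate of mitochondrial fatty acid entry, at -1.46 and the acyl-CoA ligase acsbg2 (ncbi_110535824) at -1.41. In fatty acid and triglyceride synthesis 3 of 47 were higher and 3 lower; the higher count was 1 without control 1, and the lower count was 6 without acute 3. Here the desaturase genes parted, scdb (ncbi_110530485) at 1.12 and SCD1 (ncbi_110502614) at -0.93, and Mlxipl (ncbi_110537833), the carbohydrate-responsive transcription factor ChREBP, was lower at -0.66.

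**Figure D3:**
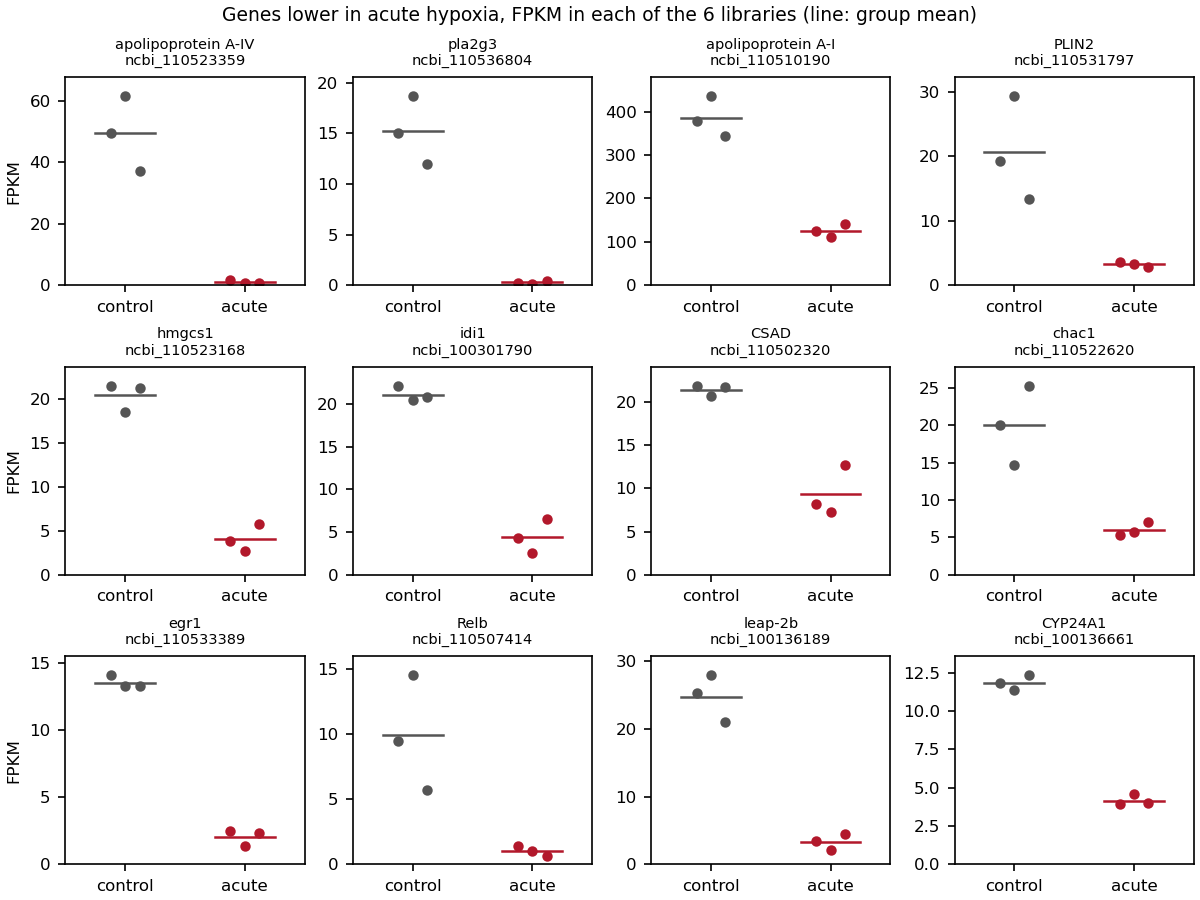
FPKM of 12 genes that fell, in each control and each acute hypoxia library (points; lines are group means, and each panel has its own vertical axis from 0). In every panel the 3 acute hypoxia libraries lie below the 3 control libraries; the apolipoprotein A-IV gene fell from 49.4 to 1.06 FPKM on average.

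Sulfur amino acid genes changed in opposite directions within 1 pathway. Cysteine dioxygenase, cdo1 (ncbi_110535689), which oxidises cysteine with molecular oxygen, was at 29.04, 33.6 and 27.4 in control and 108, 109 and 103 FPKM in acute hypoxia (log2 fold change 1.82 ± 0.10 SE, adjusted p = 7.84e-05). The next enzyme towards taurine, CSAD (ncbi_110502320), cysteine sulfinic acid decarboxylase, was at 21.9, 20.7 and 21.8 in control and 8.17, 7.33 and 12.7 FPKM in acute hypoxia (log2 fold change -1.19 ± 0.18 SE, adjusted p = 0.00756). The groups overlapped in neither gene, the first rising and the second falling. Upstream, Mat1a (ncbi_110530927), which makes S-adenosylmethionine, rose by 1.16 and cbs (ncbi_100136726), the entry to transsulfuration, by 0.90. In all, 4 of 28 genes of the methionine cycle and transsulfuration were higher and 4 lower (median -0.11), and every repeat left 3 or 4 called each way.

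Several enzymes of amino acid breakdown rose. Tyrosine aminotransferase, Tat (ncbi_110494358), was at 19.2, 18.2 and 20.9 in control and 74.97, 90.3 and 69.2 FPKM in acute hypoxia (log2 fold change 1.97 ± 0.12 SE, adjusted p = 1.13e-04), and its second copy Tat (ncbi_118936285) rose by 0.74. Of 24 genes breaking down tyrosine, tryptophan and phenylalanine 4 were higher and 1 lower (median -0.05); the higher count was 2 with any library other than control 2 left out, and the lower count was 0 without control 1, control 2, acute 1 or acute 2. Among the other amino acid and urea genes 10 of 60 were higher and 2 lower (median 0.08); the higher count was 3 without acute 2, 4 without control 1 and 6 without acute 1, and the lower count was 0 without control 1 and 1 without control 2 or acute 2. Members called in every repeat included proline dehydrogenase, Prodh (ncbi_110523753), at 0.96 and cytosolic aspartate aminotransferase, GOT1 (ncbi_110502673), at 0.92.

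A minority of purine breakdown genes rose. Of 23 tested genes 4 were higher and none lower, in each of the 6 repeats at least 4, though the median of the list was -0.03. Purine nucleoside phosphorylase, PNP (ncbi_110500424), which splits nucleosides into base and sugar phosphate, was at 1.17, 0.662 and 0.968 in control and 6.78, 8.34 and 5.06 FPKM in acute hypoxia (log2 fold change 2.32 ± 0.19 SE, adjusted p = 5.31e-04). The nucleotidase nt5c2l1 (ncbi_110523681) was at 0.853, 0.994 and 0.659 in control and 3.32, 3.59 and 2.84 FPKM in acute hypoxia (log2 fold change 1.49 ± 0.13 SE, adjusted p = 7.41e-04). In both genes every acute hypoxia library was well above every control library. Their control means were below 1 FPKM, so both passed the filter only through acute hypoxia and could only count as higher. Guanine deaminase, gda (ncbi_110535802), rose by 1.29 (adjusted p = 8.31e-04) and xanthine dehydrogenase, xdh (ncbi_110498216), which makes uric acid, by 0.66 (adjusted p = 0.00442).

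Many genes that cortisol induces in vertebrates rose. Of 42 glucocorticoid-responsive genes 16 were higher and 3 lower, with a median of 0.27; some of them, such as Tat and pck1, also stand in other lists here. The lower count was 1 without control 1, control 2, acute 2 or acute 3, while the higher count stayed between 11 and 19. The chaperone partner of the glucocorticoid receptor, fkbp5 (ncbi_110528325), was at 0.702, 0.704 and 0.698 in control and 7.67, 4.12 and 3.46 FPKM in acute hypoxia (log2 fold change 2.14 ± 0.24 SE, adjusted p = 0.00198), and FKBP5 (ncbi_110494097) rose by 1.13. The transcription factor zbtb16a (ncbi_110537608) was at 0.765, 0.950 and 0.815 in control and 3.22, 4.28 and 3.85 FPKM in acute hypoxia (log2 fold change 1.67 ± 0.13 SE, adjusted p = 3.29e-04). The genes fkbp5 (ncbi_110528325), zbtb16a and pck1 were below 1 FPKM in every control library. They passed the filter only through acute hypoxia and could only count as higher. The kinases sgk1 (ncbi_110529254) and SGK2 (ncbi_110492337) rose by 1.51 and 1.09, and the factor cebpd (ncbi_100379114) by 1.57. Tsc22d3 (ncbi_110489223), the gene of the glucocorticoid-induced leucine zipper in mammals, was uneven, at 4.33, 3.25 and 4.90 in control and 7.58, 27.1 and 32.7 FPKM in acute hypoxia. The library acute 1 lay far below the other two, and the call (adjusted p = 0.0328) was lost once any library other than acute 1 was left out (adjusted p up to 0.114). The copy Tsc22d3 (ncbi_110504506) had the same low library, at 4.99, 4.82 and 5.54 in control and 8.85, 22.6 and 29.4 FPKM in acute hypoxia, and was not called once any library other than acute 1 was left out (adjusted p up to 0.0984).

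Of the FoxO and insulin signalling genes 15% were called, against 7.49% of all genes tested. In all 8 of 60 were higher and 1 lower (median 0.08), with 6 to 8 higher in each repeat; the lower count was 0 without control 1, control 2, control 3 or acute 1 and 2 without acute 3. The transcription factors foxo1a (ncbi_110534227) and Foxo3 (ncbi_110529912), which insulin holds out of the nucleus, rose by 1.11 and 0.95. The insulin receptor substrate Irs2 (ncbi_110495980) rose by 0.98 and the kinase subunit pik3r1 (ncbi_110523476) by 1.06, whereas the paralog irs2a (ncbi_110528824) stood at -0.96 and was not called without control 1, control 2, control 3 or acute 1 (adjusted p up to 0.0998). Among translation repressors of the TOR and AMPK axis, a list added after values were seen, 3 of 27 were higher and 2 lower (median -0.01); the higher count was 5 without acute 1, and the lower count was 0 without control 1, control 3, acute 2 or acute 3 and 1 without control 2. The lower genes were deptor (ncbi_110507039), of an mTOR inhibitor, at -0.72, not called without control 1, control 3, acute 2 or acute 3 (adjusted p up to 0.0791), and Prkag2 (ncbi_110535288), of an AMPK subunit, at -0.55, not called once any library other than acute 1 was left out (adjusted p up to 0.0917). Both eif4ebp3l genes, inhibitors of cap-dependent initiation, were higher, ncbi_110504630 by 1.63 and ncbi_110489099 by 0.92. The kinase that halts elongation factor 2, EEF2K (ncbi_110499105), was at 2.06, 2.28 and 2.15 in control and 8.37, 7.93 and 8.23 FPKM in acute hypoxia (log2 fold change 1.71 ± 0.09 SE, adjusted p = 7.84e-05), with no acute hypoxia library near a control library. None of 21 genes of the insulin-like growth factor system was called; the repeat without acute 1 called 2 higher and that without control 3 called 1 lower.

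The Krueppel-like and SP transcription factors counted 6 higher and 1 lower of 24 (median 0.15); the higher count was 3 without control 1 or acute 2, and the lower count was 2 without control 3. Both genes of Krueppel-like factor 13 rose, Klf13 (ncbi_110526857) by 1.52 and klf13 (ncbi_110512113) by 1.42, and KLF15 (ncbi_110528509), a regulator of amino acid breakdown in mouse liver, was at 0.727, 0.232 and 0.645 in control and 1.92, 2.65 and 2.65 FPKM in acute hypoxia (log2 fold change 1.52 ± 0.21 SE, adjusted p = 0.00503). KLF15 (ncbi_110528509) was below 1 FPKM in every control library, so it passed the filter only through acute hypoxia and could only count as higher. When the FPKM of each group came from the separate quantification that it shares with moderate hypoxia, Klf13 (ncbi_110526857) was not called (adjusted p = 0.0688). Klf11 copies parted, with Klf11 (ncbi_110498106) lower at -0.84 and klf11a (ncbi_110522064) at 0.62, not called without control 1, acute 1 or acute 2 (adjusted p up to 0.0618). Of 59 nuclear receptor genes 5 were higher and 8 lower; the higher count was 2 without control 1, control 3 or acute 2 and 3 without control 2 or acute 1, and the lower count was 1 without control 1, 3 without control 2, 4 without acute 1 or acute 2 and 5 without control 3. The hepatocyte identity factor hnf4a (ncbi_110532634) was at 17.8, 15.3 and 19.5 in control and 30.7, 30.7 and 36.9 FPKM in acute hypoxia (log2 fold change 0.89 ± 0.12 SE, adjusted p = 0.00495). A gene with the symbol ESRRG (ncbi_110509977), annotated as steroid hormone receptor ERR1, rose by 0.79. A second gene with that symbol and annotation (ncbi_110533988) was called lower with all 6 libraries in the fit, and its calls in the repeats are not given here. The orphan receptor nr2f5 (ncbi_110515085) had a log2 fold change of -0.89. The vitamin D catabolic enzyme CYP24A1 (ncbi_100136661) was at 11.9, 11.4 and 12.3 in control and 3.92, 4.58 and 3.97 FPKM in acute hypoxia (log2 fold change -1.41 ± 0.10 SE, adjusted p = 2.38e-04). It was the only called gene of 9 tested for vitamin D metabolism. Of 41 circadian clock genes 1 was higher and none lower (2 higher without control 2, 1 lower without acute 1 and 3 higher after median-of-ratios scaling), the transcription factor HLF (ncbi_110538567) at 0.73, not called without control 1, acute 1, acute 2 or acute 3 (adjusted p up to 0.0796).

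Immediate-early genes are switched on within minutes by growth signals and stress. Of 20 tested 1 was higher and 8 lower, and 6 or 7 were lower in each repeat; the median was -0.48, and the higher count was 2 without acute 1. All 3 egr1 genes fell. The gene ncbi_110533389 was at 14.1, 13.3 and 13.3 in control and 2.495, 1.36 and 2.33 FPKM in acute hypoxia (log2 fold change -2.49 ± 0.17 SE, adjusted p = 2.38e-04), ncbi_110488587 was at 7.77, 6.33 and 8.302 in control and 1.25, 0.952 and 1.45 FPKM in acute hypoxia (log2 fold change -2.22 ± 0.15 SE, adjusted p = 1.76e-04), and ncbi_110537802 had a log2 fold change of -1.98. In each of the 3, every control library was several times as high as every acute hypoxia library. Also lower were 2 JUN genes (ncbi_110530532, -0.99; ncbi_110521616, -1.02) and junb (ncbi_110486520), -1.02. The exception was zfp36l1a (ncbi_110497620), a factor that destabilises mRNA, at 0.67.

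Some genes of the NF-kappa-B system fell, 10 of 33 with none higher (median -0.27); the lower count was 5 without control 1 and 6 without control 2 or acute 2. The subunit gene Relb (ncbi_110507414) was at 9.48, 14.5 and 5.69 in control and 1.38, 1.03 and 0.597 FPKM in acute hypoxia (log2 fold change -2.74 ± 0.31 SE, adjusted p = 0.00219), with uneven control replicates and every acute hypoxia library below all of them. A second copy, Relb (ncbi_110503511), had a log2 fold change of -1.24. The inhibitor NFKBIA (ncbi_110522049), itself a target of the pathway, was at 12.3, 16.1 and 8.05 in control and 3.02, 3.04 and 2.65 FPKM in acute hypoxia (log2 fold change -1.85 ± 0.21 SE, adjusted p = 0.00231). The adaptor kinase RIPK2 (ncbi_110526239) was lower at -2.24 and Nfkb2 (ncbi_110502378) at -0.86. Macrophage markers, which are described further on, were also lower in summed level, at 167 to 208 FPKM against 218 to 290 FPKM; their part in these falls was not tested.

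The amino acid stress and unfolded protein response genes counted 3 higher and 18 lower of 63 (median -0.26). Here the higher count was 1 without control 1, control 3, acute 2 or acute 3, and the lower count was 7 without control 1 and 10 without acute 2. The glutathione-cleaving enzyme chac1 (ncbi_110522620), a target of ATF4, was at 19.99, 14.6 and 25.3 in control and 5.26, 5.77 and 6.99 FPKM in acute hypoxia (log2 fold change -1.63 ± 0.19 SE, adjusted p = 0.00238). The genes ncbi_110507169 and ncbi_110503777, both with the symbol ATF5, had log2 fold changes of -1.55 and -0.96, and atf4 (ncbi_110494903) of -0.69. Both calreticulin genes, of the chaperone that holds calcium in the endoplasmic reticulum, fell, ncbi_110521567 at -1.07 and ncbi_110524201 at -0.97. Against that direction the co-chaperone DNAJB9 (ncbi_110490251) rose by 0.98. Serine synthesis belonged to the same list: PHGDH (ncbi_110520091), its first enzyme, was at 13.1, 8.86 and 19.5 in control and 3.32, 1.55 and 5.73 FPKM in acute hypoxia, and its change of -1.90 was not called without control 1, control 3, acute 1 or acute 2 (adjusted p up to 0.0947). Heat shock protein and DNAJ genes counted 2 higher and 3 lower of 96, 5.21% called against 7.49% of all genes tested. The higher count was 1 with any library other than control 2 left out, and the lower count was 0 without control 1 and 1 without control 3.

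Antioxidant, glutathione and thioredoxin genes counted 1 higher and 8 lower of 75 (median -0.13); the higher count was 0 without control 1, acute 1, acute 2 or acute 3, and the lower count was 1 without control 1, 3 without acute 2 and 4 without control 2 or acute 1. The thioredoxin inhibitor TXNIP (ncbi_110488228) was lower at -0.72. Iron and heme genes split evenly, 6 higher and 6 lower of 66; the lower count was 0 without control 1 and 3 without acute 2. Besides hmox, whose copy hmox (ncbi_118936555) rose by 2.43, the heme synthesis enzyme cpox (ncbi_110534779) rose by 1.03 and STEAP1 (ncbi_110535520), named for a metalloreductase family, by 1.01. A pair of STEAP4 genes stood at -1.43 (ncbi_100136336) and -0.97 (ncbi_110486049) and were not called without control 1 (adjusted p = 0.0526 and 0.052).

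Genes for making ribosomes were lower in part, in a number that depended on which libraries entered. Of 135 tested 1 was higher and 27 lower (median -0.31), but the lower count was 3 without control 1, 4 without acute 2, 7 without control 2 and 10 without control 3 or acute 1. The rRNA methyltransferase nop2 (ncbi_110537356) was lower at -0.67 (adjusted p = 0.00757) in every repeat, and the 1 higher gene was the RNA polymerase I subunit polr1f (ncbi_110487910) at 0.75. Ribosomal proteins themselves were seldom called, 0 higher and 2 lower of 187 (the higher count was 1 without acute 2, and the lower count was 1 with any library other than control 3 left out); rpl5a (ncbi_110530101) was at 8.42, 8.07 and 6.62 in control and 3.40, 3.29 and 4.38 FPKM in acute hypoxia (log2 fold change -0.97 ± 0.14 SE, adjusted p = 0.00549). Translation factors and tRNA ligases counted 2 higher and 9 lower of 138; the higher count was 1 with any library other than control 2 left out, and the lower count was 0 without control 1 or acute 2, 1 without control 3, 3 without control 2 and 4 without acute 1. Proteasome genes counted 0 higher and 10 lower of 106 (median -0.23); the lower count was 0 without control 2 or acute 2, 1 without control 1, 3 without control 3 or acute 1 and 6 without acute 3. Splicing genes counted 1 higher and 13 lower of 210; the higher count was 0 with any library other than acute 3 left out, and the lower count was 1 without control 1, 5 without control 2 or acute 2 and 7 without control 3. Of 120 cullin-RING ligase genes 1 was lower, Klhl29 (ncbi_110522439) at -0.48, not called once any library other than acute 3 was left out (adjusted p up to 0.116). The shares called were 7.97% for translation factors and tRNA ligases and 6.67% for splicing, near the 7.49% of all genes tested. They were 20.7% for ribosome making, 9.43% for the proteasome, 1.07% for ribosomal proteins and 0.833% for cullin-RING ligases.

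Among cell cycle and DNA replication genes 6 of 30 were lower and 1 higher (median -0.25). The helicase subunit mcm3 (ncbi_110529168) was at 2.41, 2.101 and 2.69 in control and 0.656, 0.552 and 0.440 FPKM in acute hypoxia (log2 fold change -1.47 ± 0.13 SE, adjusted p = 7.14e-04). As mcm3 was below 1 FPKM in every acute hypoxia library, it passed the filter only through control and could only count as lower. Other subunits of that helicase fell too, zmcm6-a (ncbi_110530628) at -1.05 and mcm4 (ncbi_110530465) at -0.92, as did thymidylate synthase, tyms (ncbi_110489946), at -0.70. The higher gene, the cell cycle inhibitor cdkn1ba (ncbi_110490138) at 0.99, was not called without control 1, control 2, acute 2 or acute 3 (adjusted p up to 0.0917).

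Among secreted blood proteins the share called was 0% for complement genes and 5.56% for coagulation genes. The second share was near the 7.49% of all genes tested. None of 45 complement genes was called (median -0.01); median-of-ratios scaling called 2 higher and the repeat without control 2 called 1 higher. Coagulation genes and protease inhibitors counted 3 higher and 1 lower of 72; the higher count was 0 without control 1, control 2, acute 1 or acute 3 and 1 without control 3 or acute 2, and the lower count was 0 without control 1, control 3 or acute 2. Acute phase genes counted 2 higher and 2 lower of 23, 17.4% called. The higher count was 1 with any library other than control 3 left out, and the lower count was 1 without control 1. Among these the liver-expressed antimicrobial peptides parted. The gene leap-2b (ncbi_100136189) was at 25.3, 27.9 and 21.1 in control and 3.46, 2.07 and 4.52 FPKM in acute hypoxia (log2 fold change -2.76 ± 0.23 SE, adjusted p = 5.30e-04), while leap2 (ncbi_100136188) was at 4.84, 4.13 and 4.96 in control and 9.0, 11.3 and 10.4 FPKM in acute hypoxia (log2 fold change 1.06 ± 0.12 SE, adjusted p = 0.00198). They changed in opposite directions with no overlap between groups in either. Chemokines, cytokines and receptors counted 1 higher and 2 lower of 52; the higher count was 0 without control 1, control 2, acute 1 or acute 2 and 2 without acute 3, and the lower count was 0 without control 1 or acute 2 and 1 without control 2, acute 1 or acute 3. The interferon, STAT and SOCS genes counted 2 higher and 1 lower of 48 (the higher count was 1 without control 1, control 3 or acute 1, and the lower count was 0 without acute 2), of which socs2 (ncbi_110500152), a brake on growth hormone signalling, rose by 1.34. Xenobiotic metabolism counted 6 higher and 3 lower of 80; the higher count was 1 without control 1 or acute 2, 2 without control 3 or acute 1 and 3 without control 2, and the lower count was 0 without control 1 or acute 1 and 1 without control 2 or acute 2.

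Some of the genes with wide changes fell in none of the lists above. The gene with the symbol KCNC4 (ncbi_110528089), annotated as a member of voltage-gated potassium channel subfamily C, was at 4.46, 4.08 and 5.08 in control and 21.3, 27.1 and 23.96 FPKM in acute hypoxia (log2 fold change 2.29 ± 0.12 SE, adjusted p = 7.84e-05). The transcription factor tfcp2l1 (ncbi_110501799) was at 1.56, 1.02 and 1.78 in control and 7.01, 6.79 and 9.47 FPKM in acute hypoxia (log2 fold change 2.08 ± 0.18 SE, adjusted p = 6.15e-04). The mitochondrial carrier slc25a48 (ncbi_110489205) rose by 1.89 (adjusted p = 0.00115). In the other direction INHBB (ncbi_110494776), annotated as inhibin subunit beta C, a liver-made member of the TGF-beta family, was at 30.7, 30.7 and 28.3 in control and 5.05, 7.84 and 8.42 FPKM in acute hypoxia (log2 fold change -2.03 ± 0.17 SE, adjusted p = 5.31e-04), with no acute hypoxia library near a control library.

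**Figure D4:**
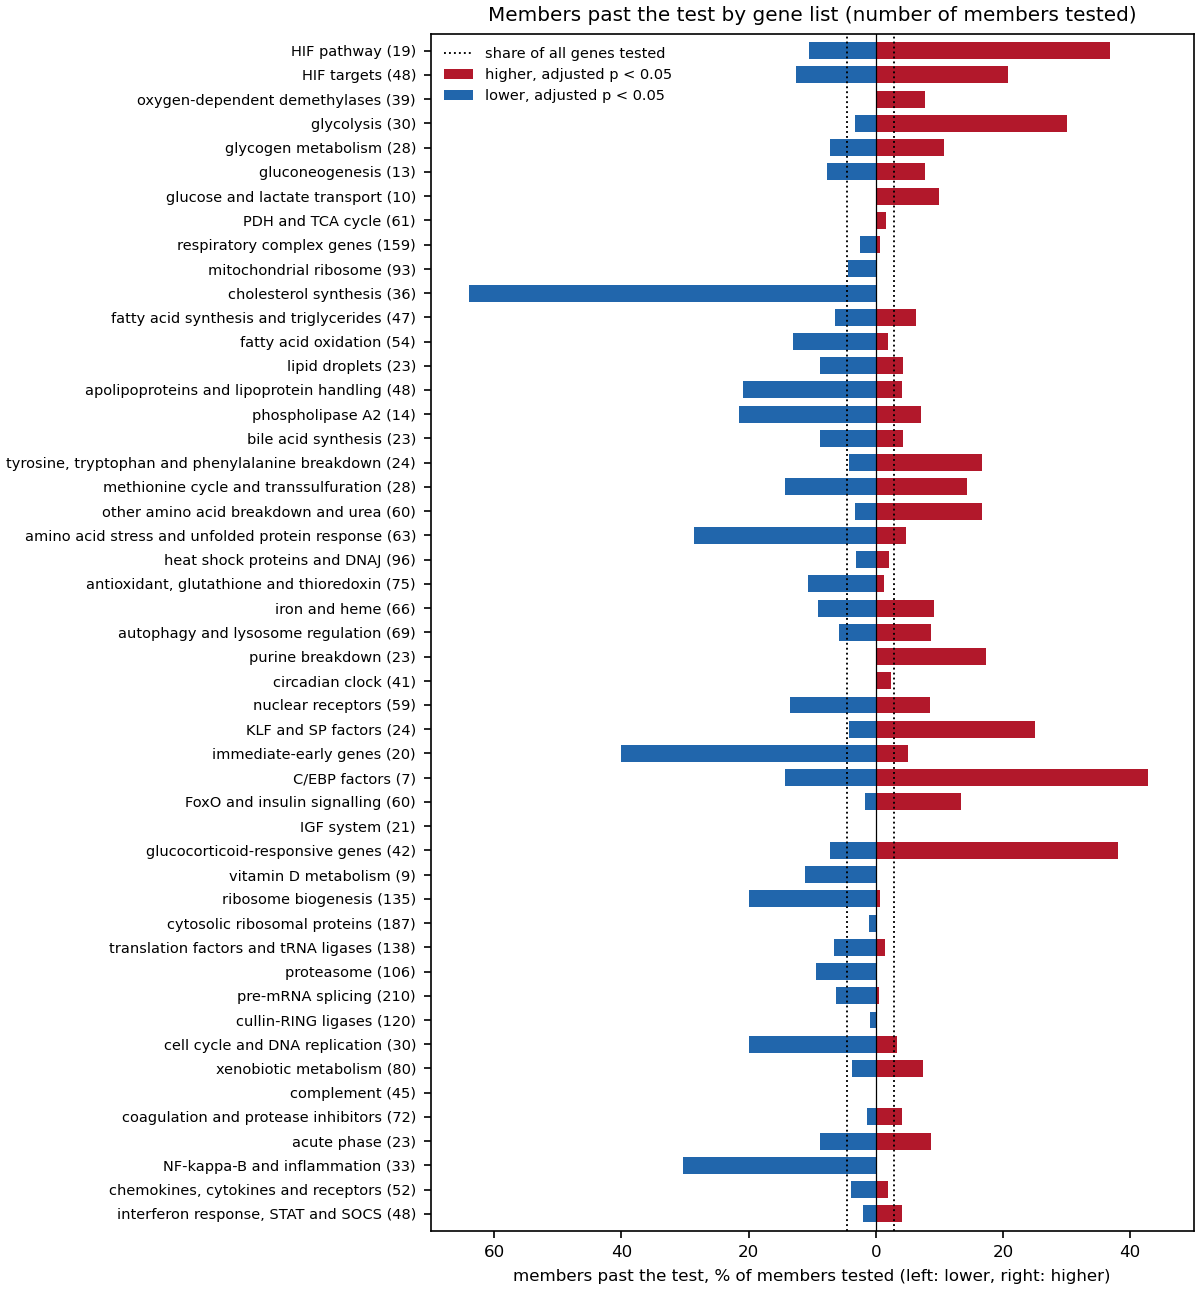
Share of the tested members of each gene list that passed the test, with higher genes to the right of 0 and lower genes to the left (horizontal axis, %; list names with numbers of members tested on the vertical axis). Dotted lines give the shares among all genes tested, 2.94% higher and 4.55% lower; cholesterol synthesis has the longest bar to the left, 23 of 36.

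Markers of other cell types were measured to describe what tissue the libraries held. Hepatocyte markers were called in 1 of 30 genes (median 0.07), the fibrinogen gene fga (ncbi_110536438) at 0.46, not called once any library other than control 3 was left out (adjusted p up to 0.132). Macrophage markers had a lower summed level in acute hypoxia, 167 to 208 FPKM against 218 to 290 FPKM in control, with groups that did not overlap; all 17 tested members had a negative log2 fold change, and 1 was called, the macrophage perforin gene mpeg1.1 (ncbi_110525246) at -0.70, not called without any 1 of the 6 libraries (adjusted p up to 0.0982). Of the 62 listed macrophage genes 9 were listed at 0 in all 6 libraries. Red cell markers summed to 3216 to 3750 FPKM in control and to 3727, 2184 and 2192 FPKM in acute hypoxia replicates 1 to 3, so that replicate 1 lay within the control range and the other two below it. No red cell gene was called with all 6 libraries in the fit, and 15 of 27 were lower without acute 1. As with the macrophage markers (median -0.28), nearly all red cell members, 26 of 27, had a negative log2 fold change (median -0.26). The median of all genes tested was -0.05. Of 73 listed red cell genes 29 were listed at 0 in all 6 libraries, most of them copies of hemoglobin genes, and other copies were expressed. Markers of exocrine pancreas, a tissue that lies near or within the liver in many fish, summed to 7.91, 41.1 and 69.9 FPKM in control replicates 1 to 3. In acute hypoxia replicates 1 to 3 they summed to 94.0, 68.0 and 32.4 FPKM. The groups overlapped, and control 1 lay far below every other library. None of 17 was called, and all 17 had a positive log2 fold change (median 0.82). Of the 48 listed, 11 were listed at 0 in all 6 libraries, both ptf1a genes and Cpa1 among them. Neutrophil, lymphocyte, endothelial, stellate cell, bile duct and muscle markers held no called gene in the full set, and 2 of 53 stellate cell and matrix genes were lower without acute 3. The part of these cell types in the gene changes above was not tested.

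**Figure D5:**
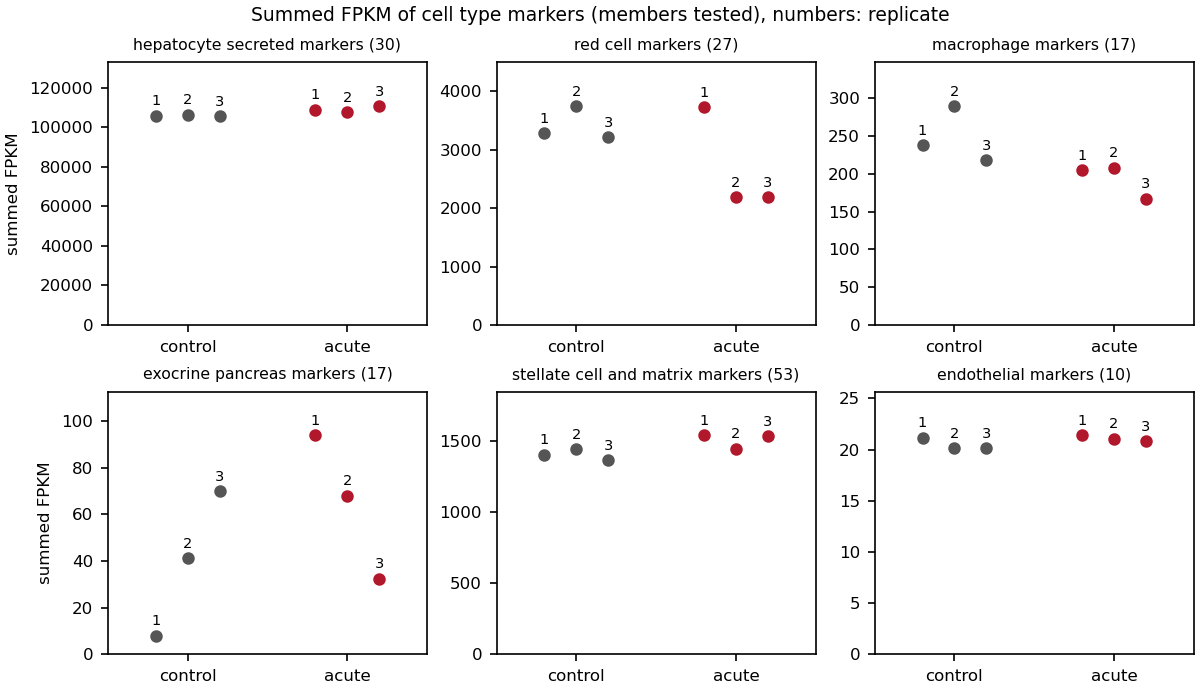
Summed FPKM of the tested members of 6 marker lists in each library (vertical axes from 0, 1 scale per panel; numbers beside the points are replicates). Hepatocyte sums are slightly higher in each acute hypoxia library (107571 to 110780 FPKM) than in each control library (105684 to 106315 FPKM). Macrophage sums are lower in each acute hypoxia library (167 to 208 FPKM) than in each control library (218 to 290 FPKM). Acute hypoxia replicates 2 and 3 have the lowest red cell sums.

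A further deposited table holds acute with moderate hypoxia, and the genes named above were compared there. The same acute hypoxia libraries stand in both comparisons. Whether both hypoxia groups had the same exposure time is not clear. There 4086 of 13979 genes (29.2%) were called, 504 higher (3.61%) and 3582 lower (25.6%) in acute hypoxia, at a median log2 difference of all genes of -0.21; 2269 were called without moderate hypoxia replicate 1. After median-of-ratios scaling 1387 of 13897 genes were higher (9.98%) and 1365 lower (9.82%). Differences are therefore given relative to that median, while the adjusted p tests the difference before the median was subtracted. The hydroxylase gene fih1 (ncbi_101268916) was at 8.69, 6.41 and 6.65 in moderate hypoxia and 31.7, 35.7 and 30.4 FPKM in acute hypoxia (2.32 relative to the median gene, adjusted p = 9.53e-05). The hormone gene epo (ncbi_110531655) was at 1.36, 1.41 and 1.15 in moderate hypoxia and 2.56, 3.35 and 3.46 FPKM in acute hypoxia (1.21 relative to the median gene, adjusted p = 0.00194). For both, every acute hypoxia library lay above every moderate hypoxia library. For cdo1 (ncbi_110535689) the difference was 1.48 (adjusted p = 3.02e-04) and for PNP (ncbi_110500424) it was 1.83 (adjusted p = 6.33e-04), both relative to the median gene. Several genes that fell against control were also lower than in moderate hypoxia. The phospholipase gene pla2g3 (ncbi_110536804) was at 7.23, 9.56 and 5.29 in moderate hypoxia and 0.245, 0.134 and 0.434 FPKM in acute hypoxia (-3.12 relative to the median gene, adjusted p = 9.84e-05), and hmgcs1 (ncbi_110523168) was at 24.5, 27.3 and 16.6 in moderate hypoxia and 3.82, 2.63 and 5.77 FPKM in acute hypoxia (-2.17 relative to the median gene, adjusted p = 6.90e-04). Relative to the median, PLIN2 (ncbi_110531797) differed by -2.35 (adjusted p = 5.19e-05), Relb (ncbi_110507414) by -3.16 (adjusted p = 2.34e-04) and leap-2b (ncbi_100136189) by -1.85 (adjusted p = 6.33e-04). CYP24A1 (ncbi_100136661) was higher than in moderate hypoxia, at 2.32, 2.42 and 2.01 in moderate hypoxia and 3.898, 4.55 and 3.94 FPKM in acute hypoxia (0.96 relative to the median gene, adjusted p = 0.00301), although it fell against control. For hmox (ncbi_110485518), at 36.2, 46.7 and 36.6 in moderate hypoxia and 66.01, 56.99 and 42.9 FPKM in acute hypoxia, the difference did not pass the test before scaling (adjusted p = 0.0677) and passed it after median-of-ratios scaling (adjusted p = 0.0263). Each acute hypoxia library had a lower FPKM of this gene here than in the quantification with control, so its level depends on the quantification.

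The glucose transporter genes that the series is named for lay below the 1 FPKM filter and were not part of the fit. The gene glut1a (ncbi_100135909) was at 0.282, 0.542 and 0.769 FPKM in control and 1.11, 1.34 and 1.17 FPKM in acute hypoxia, with no overlap between groups (log2 fold change 0.75). An exact two-sided permutation test gave p = 0.1, the smallest that 3 libraries against 3 allow, and limma without the filter gave adjusted p = 0.123. Its relative Slc2a1 (ncbi_110494474) was at 0.30, 0.082 and 0.272 FPKM in control and 0.603, 0.460 and 0.664 FPKM in acute hypoxia (log2 fold change 0.59, exact permutation p = 0.1, adjusted p = 0.133). The genes glut1b (ncbi_100135910), Slc2a1 (ncbi_110492286) and SLC2A1 (ncbi_110498303) were listed at 0 in all 6 libraries.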

How the data were processed

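Total RNA of trout liver was sequenced, and the deposited file gives FPKM values for each gene in each library, per its headers, in 3 stacked tables. That of control with acute hypoxia was used. The authors also deposited a log2 fold change, a p-value and an FDR per gene, which only served as a check: at FDR under 0.05 the authors' deposited table calls 947 of the genes tested, 727 of them among the 976. Upstream tools were Bowtie2 2.2.8 and TopHat2 2.1.1, per the submitters' processing notes; the genome build, annotation and counting tool are not given in the sources used here. Each FPKM is scaled to its library total, so it is a relative level.

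Genes whose 6 libraries averaged 1 FPKM or more were tested. The model, from limma 3.58.1 under R 4.3.3 (lmFit, then eBayes with a mean trend and no covariate), took log2(FPKM + 0.5), and two-sided p-values were adjusted after Benjamini and Hochberg, with 0.05 as threshold. The test was checked on simulated data. Acute and moderate hypoxia were tested likewise in their joint table. The named genes were the 15 highest and 15 lowest past the test with a log2 change of at least 1 and a name, up to 4 called members of each of 59 gene lists, all called HIF genes, the glut1 genes and opposite pairs of paralogs; some of these are not reported here, and others were named after their values were seen. Lists match symbols and product names, with mismatches struck out from the names alone, and are given as counts and medians with no set test. An annotation table matched 12934 of the genes. The members and lists were chosen with earlier results of these data known. Alternatives were other pseudocounts, filters, scalings, variance models, a fold threshold, a replicate block, FPKM of the other stacked tables and fits lacking 1 library. No 2 libraries held identical values.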

Additional observations from a re-analysis of the deposited data

How the results depend on the processing

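The 976 calls became 954 and 983 with pseudocounts of 0.1 and 1, 970 with quantile normalization, 915 without the mean trend and 987 with robust variances. They became 940 when the FPKM of each group came from the quantification that it shares with moderate hypoxia. There 902 of the 960 called genes tested were called again. That setting sets the same libraries side by side from 2 separate quantifications, so it is no independent repeat. Without the filter 532 genes were called (235 higher, 297 lower), with a mean of at least 5 FPKM 491 (196 and 295), and with a fold threshold of 0.5 on the log2 scale 87 (48 and 39). Leaving out 1 library gave 281 to 805 calls, 132 to 306 higher and 149 to 499 lower; for acute against moderate hypoxia it gave 2269 (without moderate hypoxia replicate 1) to 3301. The log2 fold change of hif1a, which passed no test, was -0.019 without acute hypoxia replicate 3, against the main direction, and up to 0.0472 without acute hypoxia replicate 1. The replicate block gave 701 calls (272 higher, 429 lower) and 3179 for acute against moderate hypoxia. Control and acute hypoxia libraries of the same number did not deviate together (correlations of deviations from group means -0.142, 0.0145 and -0.0101). With 3 libraries in a group these values cannot exclude a pairing, and the labels do not say whether the numbers mark one. Median-of-ratios scaling gave 1 lower gene in place of 2 for the HIF pathway, glycogen metabolism and ribosomal proteins and in place of 3 for phospholipase A2, 2 higher splicing and hepatocyte genes in place of 1, and 1 higher gene in place of 0 for the NF-kappa-B, cullin-RING and stellate lists; the lower tyrosine, tryptophan and phenylalanine gene lost its call. The cause of these differences was not tested. Low FPKM limits the size of change that can be seen, and read depth is unknown.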

Other observations

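Further gene groups were listed after their values had been seen, so their counts are descriptions only. The same holds for the counts of the earlier lists, which were chosen with earlier results of these data known. Phospholipid synthesis genes counted 0 of 34 higher and 11 lower (median -0.12), with 6 to 10 lower when 1 library was left out (6 without control 1). Among them were phosphatidylserine decarboxylase, PISD (ncbi_110523465), at 163, 173 and 155 in control and 48.3, 46.1 and 82.3 FPKM in acute hypoxia (log2 fold change -1.52), Cds1 (ncbi_110525165) at -1.26 and PCYT1B (ncbi_110534067), an enzyme of phosphatidylcholine synthesis, at -1.54. Of the sterol export and storage genes 4 of 16 were lower and 1 higher, with 2 higher without acute 1: 3 ABCA1 genes, of the cholesterol exporter, had log2 fold changes of -1.03 (ncbi_110498663), -1.04 (ncbi_110534463) and -1.03 (ncbi_110488861, symbol abca1b), while the cholesterol esterifying enzyme soat2 (ncbi_110494785) rose by 0.94. Amino acid transporters counted 10 of 42 higher and 3 lower (median 0.22); the higher count was 3 without control 1 or acute 2 and 6 without control 3, and the lower count was 1 without control 1 or control 2 and 5 without acute 3. They parted within the class, with SLC38A4 (ncbi_110490512) at 28.9, 27.4 and 30.4 in control and 98.6, 94.7 and 79.0 FPKM in acute hypoxia (log2 fold change 1.63) and slc38a2 (ncbi_110490511) at 1.23, but the heavy chain of heteromeric exchangers, SLC3A2 (ncbi_110509955), at -1.31. Mitochondrial carriers of the SLC25 family counted 6 of 50 higher and 4 lower (median 0.02); the lower count was 1 without control 1, control 2 or acute 2 and 2 without acute 1 or acute 3. Among its members was the pyrimidine nucleotide carrier slc25a33 (ncbi_110532819) at 1.43.

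Genes with the symbol Nlrc3, a family of innate immune receptors much expanded in fish, counted 14 of 36 higher and 0 lower (median 0.42); the higher count was 5 without control 1, 7 without acute 2 and 9 without control 3. Their copies are similar in sequence, so reads may be split or shared between them and single values are uncertain. Other rises noticed after the fact were 2 further oxygen-using enzymes of sulfur metabolism, ADO (ncbi_110529936), a thiol dioxygenase, at 3.11, 3.52 and 2.39 in control and 6.44, 7.37 and 7.49 FPKM in acute hypoxia (log2 fold change 1.13) and Ethe1 (ncbi_110488606), persulfide dioxygenase, at 2.404, 3.21 and 2.49 in control and 6.62, 5.16 and 6.07 FPKM in acute hypoxia (log2 fold change 1.01). The antiproliferative genes TOB1 (ncbi_110538731) and BTG1 (ncbi_110499881) stood at 1.21 and 0.86, and ncoa4 (ncbi_110527319), the receptor for ferritin turnover, at 0.83. Each of these 5 genes was called whichever library was left out.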
